A study of Mus musculus with 9 samples.

Results

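The level of each gene after 12 h of NRG1 was set against the average of its levels at 0 h and 24 h, a contrast that is large for genes with a peak or a trough in the middle of the time course, and also for genes that moved early and stayed. It used 9 of the 9 libraries of the series, with a weight of 1 for the 12 h mean and of -0.5 for the 0 h mean and for the 24 h mean on a log2 scale, and it was computed for the 11373 genes, of 15552 in the table, that had enough counts. The cells were MyC-CaP, a single established line from a prostate tumor of a mouse carrying a MYC transgene. In all 9 libraries the cells had been kept in medium without serum and calcium for between 6 and 12 h. They then received recombinant NRG1 at 15 ng/mL for 0, 12 or 24 h. Each time had 3 replicates, which the labels call biological and the methods of the study describe as plated in triplicate. No library of cells kept in that medium without NRG1 for 12 or 24 h was analysed here, so the time with NRG1 and the further time in the medium cannot be told apart.

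NRG1 is a growth factor of the epidermal growth factor family that binds the receptor HER3, encoded by Erbb3. The bound receptor pairs with HER2, encoded by Erbb2, and passes the signal on to the MAPK/ERK and PI3K/AKT pathways. Transcriptional responses to such a signal are known to come in waves, in which immediate early transcription factors such as FOS, JUN and EGR1 are followed by the genes they control, by feedback inhibitors and, in cells that enter the cycle, by the genes of DNA replication. Set beside its flanks, the differences from 0 h and from 24 h, a contrast centred on the middle time point separates transcripts that come back from those that stay at a new level.

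Libraries held between 28467089 and 39239760 counts, and the ranges of the 3 time points overlapped. Every pair of replicates differed by more than counting noise, with chi-square values per degree of freedom from 3.40 to 10.35. Replicate 3 at 12 h stood apart, with 10.17 and 10.35 against the other 12 h libraries, which gave 4.335 between them. To a lesser degree so did replicate 1 at 0 h, with 7.637 and 6.759 against the other 0 h libraries, which gave 4.218. Many results that change with replicate 3 at 12 h are given with and without it, but some smaller changes in list counts are not. The prostate regulators Foxa1 and Hoxb13 were expressed at mean levels of 286 and 92.2 CPM (counts relative to library size). Of the epithelial markers that were checked, Krt8 was at 21.2 CPM, whereas Epcam (0.00997 CPM), Cdh1 (0.0470 CPM) and Krt18 (0.316 CPM) were near 0 in these cells, which the labels call epithelial-like. Marker sums of basal epithelium, macrophages and endothelium reached at most 1.11 CPM in any library. The basal sum rests on Krt14 and Trp63, as Krt5 was not among the genes analysed here. The keratins Krt15 and Krt6a, described below, were not among these markers. The summed fibroblast markers lay between 15.3 and 18.0 CPM, nearly all of it from Pdgfra at 16.5 CPM.

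At an adjusted p of at most 0.05 and a change of at least 1.5-fold, the thresholds the study used, 25 genes were called higher at 12 h than the average of 0 and 24 h, 0.220% of those tested, and 39 were called lower, 0.343%. Low expression was common among them, since 12 of the 25 and 36 of the 39 had a mean under 5 CPM. Without the fold threshold, 1088 genes (9.57%) were higher and 805 (7.08%) were lower. Their median absolute contrast was 0.19 (contrasts and flanks are log2 differences, given ± SE), so most of these differences were well under 1.5-fold. The 3 libraries at 12 h all lay above the other 6 for 815 genes, 7.17% of those tested, and all below them for 585 genes, 5.14%. When counts were scaled by their totals alone, the split at an adjusted p of 0.05 was 846 higher and 941 lower. No gene passed a test against a change of 1.5-fold itself (glmTreat, 0 genes, lowest adjusted p = 0.479), whereas an unadjusted p under 0.05 in the test against no change was reached by 1824 genes on the higher side and 1595 on the lower side.

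A gene that moves by 12 h and then stays also has a contrast different from 0, so the flanks of each gene were examined. Among the 1088 genes that were higher, 245 lay above 0 h and above 24 h with an adjusted p of at most 0.05 in each, and these are called peak genes (2.15% of genes tested). A further 701 differed from 0 h and not from 24 h at that threshold, and 74 differed from 24 h and not from 0 h. Among the 805 that were lower, 132 lay below both flanks and are called trough genes (1.16%), 607 differed from 0 h alone and 29 from 24 h alone. Passing against 0 h and missing the threshold against 24 h does not show that the 2 later levels were alike. The smaller of the 2 flanking differences had a median of 0.20 in peak genes and -0.22 in trough genes, and it reached 1.5-fold in 5 and 9 of them. Both counts depended on single libraries. In the 9 fits that left out 1 library, peak genes numbered from 106 to 308 and trough genes from 44 to 238, and 80 peak genes and 26 trough genes kept that shape in all 9 fits. Peak genes fell to 109 without replicate 1 at 12 h and to 106, 123 and 109 without replicates 1, 2 and 3 at 24 h, and trough genes to 55, 61, 44 and 80 in the same fits. Without replicate 3 at 12 h there were 308 peak genes, 214 of them among the 245, and 238 trough genes, 93 of them among the 132.

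**Figure D1:**
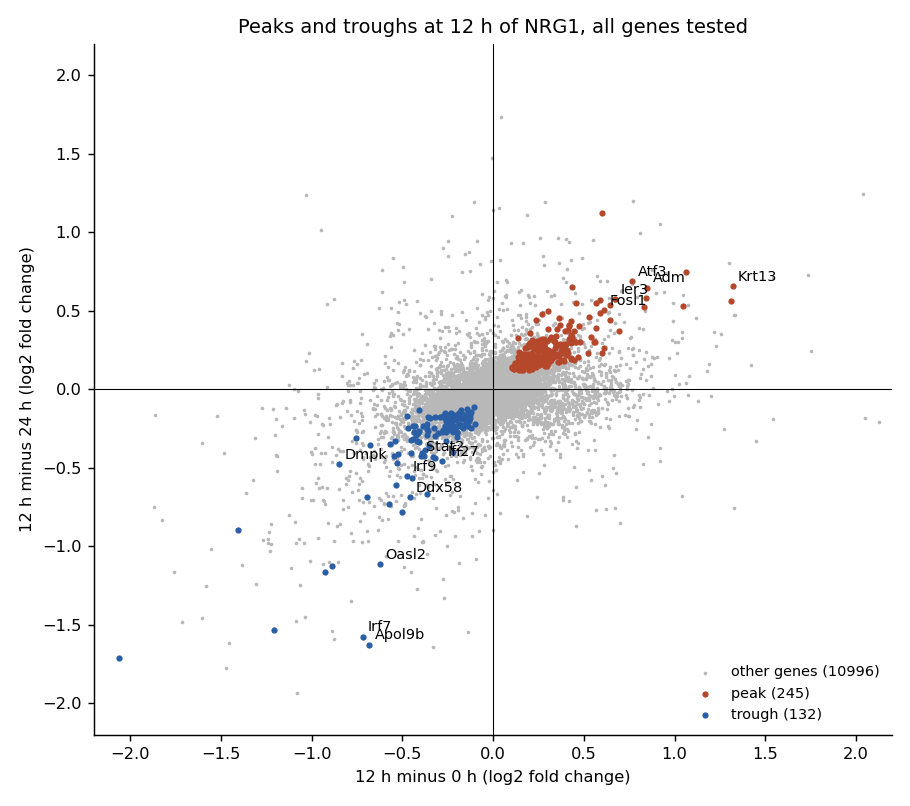
Each point is one of the genes tested, with its log2 fold change of 12 h against 0 h on the horizontal axis and of 12 h against 24 h on the vertical axis; red points are the 245 peak genes, blue points the 132 trough genes and grey points the other 10996, with 1 gene outside the axes. Peaks lie in the upper right quadrant, where Krt13 lies farther from 0 h than from 24 h, and troughs in the lower left, where the interferon-stimulated genes Irf7, Apol9b and Oasl2 lie farther from 24 h than Dmpk.

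Promoter sequences are described here for some of the groups given next, and any part of the motifs in the changes at 12 h was not tested. RefSeq promoters (GRCm38.p6, from 250 bases before to 50 bases after the start site) were found for 9089 of 11371 gene symbols tested, 196 of 245 peak genes and 106 of 132 trough genes. They were searched on both strands for short motifs, and a match describes the letters only. The core of the interferon-stimulated response element, GAAANNGAA, stood in 6.91% of the promoters of all genes tested and in 53.8% of those of the interferon-stimulated genes described below. In trough genes outside that list the share was 5.11%. Of the trough genes that hold the core, 4 interferon-stimulated ones are shown, written 5′ to 3′ along the gene, with the match (here its reverse complement) in capitals; matches in Ifit1 and in Apol9b overlap.
Ifit1, chr19:34640740-34640853, plus strand: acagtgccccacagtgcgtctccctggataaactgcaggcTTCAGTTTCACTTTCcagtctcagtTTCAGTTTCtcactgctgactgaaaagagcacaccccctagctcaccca
Apol9b, chr15:77728996-77729071, plus strand: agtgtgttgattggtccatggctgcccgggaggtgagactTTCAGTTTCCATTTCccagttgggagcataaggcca
Gbp7, chr3:142530244-142530332, plus strand: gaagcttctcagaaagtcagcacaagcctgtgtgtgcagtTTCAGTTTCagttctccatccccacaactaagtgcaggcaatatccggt
Stat2, chr10:128270248-128270325, plus strand: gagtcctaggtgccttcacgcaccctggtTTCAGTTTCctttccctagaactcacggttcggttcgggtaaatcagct

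The hypoxia element ACGTG, the core bound by HIF factors, stood in 26.1% of all promoters, 37.4% of those of peak genes, 17.4% of those of trough genes and 51.9% of those of the hypoxia genes described below. This motif is contained in the E-box CACGTG, which stood in 10.2% of all promoters and 10.9% of those of peak genes. Peak genes include 10 members of the hypoxia list, and the share of ACGTG without them was not computed. Promoter stretches of 4 hypoxia genes with a peak at 12 h are shown with ACGTG or its reverse complement in capitals, and in Bnip3 the match extends over an E-box.
Hilpda, chr6:29272543-29272625, plus strand: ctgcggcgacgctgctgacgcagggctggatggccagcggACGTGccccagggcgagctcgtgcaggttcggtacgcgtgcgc
Slc2a1, chr4:119108669-119108744, plus strand: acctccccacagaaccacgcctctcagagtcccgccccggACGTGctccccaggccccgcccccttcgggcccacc
Bnip3, chr7:138909569-138909654, minus strand: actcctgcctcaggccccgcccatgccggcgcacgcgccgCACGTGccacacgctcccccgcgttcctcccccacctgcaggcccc
Egln1, chr8:124949278-124949362, minus strand: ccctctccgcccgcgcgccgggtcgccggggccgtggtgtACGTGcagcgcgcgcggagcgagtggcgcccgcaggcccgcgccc

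The AP-1 site is TGACTCA or TGAGTCA, and the search allowed any middle base (TGANTCA). This AP-1-like pattern stood in 5.07% of all promoters and 4.28% of those of peak genes, and the NF-kB site in 1.49% and 1.95%. In promoters of trough genes the shares were 8.05% and 1.34%. The AP-1-like pattern stood in 30.8% of promoters of the interferon-stimulated genes and in 0% of those of the immediate early genes. Krt13 and Cxcl1 had the 2 largest contrasts among named genes over 5 CPM. The promoter of each held a match to one of these patterns, given in capitals (overlapping matches in Cxcl1). The Krt13 match, TGAATCA, is not the AP-1 site itself.
Krt13, chr11:100121716-100121802, minus strand: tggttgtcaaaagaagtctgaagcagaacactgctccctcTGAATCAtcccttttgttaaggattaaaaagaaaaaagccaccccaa
Cxcl1, chr5:90891134-90891224, plus strand: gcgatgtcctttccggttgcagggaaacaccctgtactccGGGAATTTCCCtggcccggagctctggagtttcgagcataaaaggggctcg

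**Figure D2:**
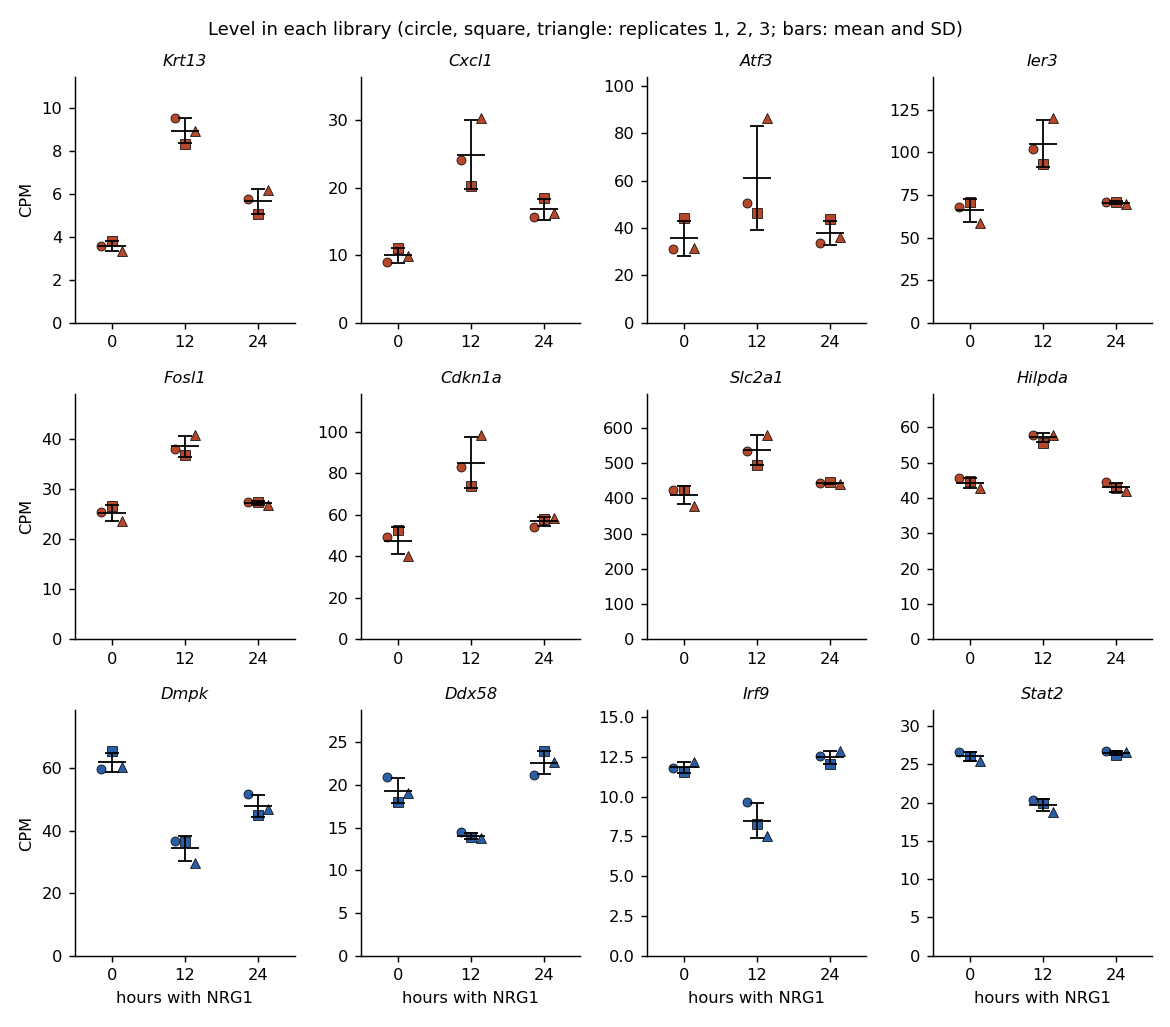
CPM in each of the 9 libraries for 8 genes higher at 12 h (red) and 4 genes lower at 12 h (blue), by hours with NRG1 on the horizontal axis; circles, squares and triangles are replicates 1, 2 and 3, and bars are the mean and SD of 3 libraries on axes that start at 0. In each of the 12 genes the 12 h libraries lie entirely above or entirely below the other 6, and in Atf3 the triangle at 12 h, replicate 3, lies far above the other 12 h libraries.

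Of the named genes over 5 CPM, Krt13 and Cxcl1 had the largest positive contrasts. Krt13, a keratin of stratified epithelium, was measured at 3.58, 3.81 and 3.37 CPM in the 3 libraries at 0 h, 9.55, 8.36 and 8.97 at 12 h and 5.76, 5.05 and 6.22 at 24 h. All of its 12 h values were above all others, with a contrast of 0.99 ± 0.093, adjusted p = 7.98e-06 (log2, SE), and flanks of 1.32 against 0 h (adjusted p = 8.89e-07) and 0.66 against 24 h (adjusted p = 0.0019). Cxcl1, a neutrophil-attracting chemokine, was at 9.99 ± 1.08 CPM at 0 h, 24.9 ± 5.09 CPM at 12 h and 16.8 ± 1.51 CPM at 24 h (SD, n = 3 each). Its contrast was 0.94 ± 0.10, adjusted p = 2e-05, and the 24 h level stayed above that at 0 h in each library. F3, which encodes tissue factor, was a peak gene with a smaller contrast of 0.38 ± 0.046. Krt13 and F3 kept their peak in all 9 fits that left out 1 library.

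Transcription factors of the AP-1 family and other immediate early genes were partly higher at 12 h than on either side. Of 26 tested immediate early and AP-1 genes, 14 were higher at 12 h and 0 lower, against 9.57% and 7.08% of all genes, and 9 were peak genes. The median contrast of the list was 0.26, against -0.00019 for all genes. Fosl1, the AP-1 subunit FRA1, stood at 25.5, 26.6 and 23.6 CPM at 0 h, 38, 36.8 and 40.9 CPM at 12 h and 27.3, 27.4 and 26.7 CPM at 24 h, so that the 12 h libraries were clear of the rest, and its contrast was 0.56 ± 0.049, adjusted p = 4.58e-06. More than 10% of its exonic bases, 57.2%, overlap Ccdc85b on the opposite strand, and 52.6% of those of Jund overlap a gene there, so with an unstated strand setting their counts may include reads of the partner. Jund, another subunit, was at 432 ± 14.4 CPM at 0 h, 621 ± 10.6 CPM at 12 h and 528 ± 4.3 CPM at 24 h (SD, n = 3), and its contrast was 0.38 ± 0.029, adjusted p = 1.45e-06. Ier3, an early response gene linked to cell survival, was at 68, 70.9 and 58.6 CPM at 0 h, 102, 93 and 120.1 CPM at 12 h and 70.9, 71.1 and 69.5 CPM at 24 h, with no overlap between 12 h and either flank. Its contrast was 0.62 ± 0.065, adjusted p = 1.67e-05. Atf3, a stress-inducible factor of the same family, was measured at 31.1, 44.3 and 31.7 CPM at 0 h, 50.5, 46.5 and 86.4 CPM at 12 h and 33.8, 43.7 and 36.1 CPM at 24 h. Its replicate 3 at 12 h lay far above the other 12 h libraries, and the contrast of 0.73 ± 0.15, adjusted p = 0.00369, became 0.41 without that library. Egr1, a zinc finger factor downstream of ERK, gave 0.59 ± 0.11 with all libraries and 0.40 without it. Junb (chosen after its values were seen, like Fos) was a peak gene at 0.32 ± 0.039. Fos differed from 24 h alone, with 20.1, 22.6 and 20.7 CPM at 0 h, 22.5, 19.1 and 25.1 CPM at 12 h and 14.3, 14.9 and 15.1 CPM at 24 h and a contrast of 0.33 ± 0.073. The mean score of the list, its mean log2 CPM less its 0 h mean, was 0.15, 0.21 and 0.47 in the 12 h libraries, with the other 6 from -0.048 to 0.10, so all 12 h libraries lay above the rest and replicate 3 had the highest score. Without replicate 3 at 12 h, 11 of the 26 passed upward and 1 downward, and the median was 0.17.

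Genes of the p53 pathway were partly among the peaks. Of 24 tested p53 target genes 7 were higher and 1 lower, against 9.57% and 7.08% of all genes, with 3 peak genes, against 2.15%, and a median contrast of 0.12. Cdkn1a, which encodes the cyclin-dependent kinase inhibitor p21, was at 49.2, 52.8 and 40.1 CPM at 0 h, 82.8, 74 and 98.6 CPM at 12 h and 54.3, 57.7 and 58.4 CPM at 24 h. The 12 h libraries lay above the rest, and the contrast was 0.71 ± 0.078, adjusted p = 2.26e-05. Plk3, a polo-like kinase, gave 0.79 ± 0.13, and 0.48 without replicate 3 at 12 h. Eda2r, a receptor of the tumor necrosis factor family, had 6.67, 9.73 and 6.24 CPM at 0 h, 13.5, 15 and 29.3 CPM at 12 h and 11.1, 17.3 and 13 CPM at 24 h. In Eda2r 2 of the 12 h libraries lay below the highest 24 h library, the flank against 24 h missed the threshold (adjusted p = 0.266), and the contrast of 0.90 ± 0.20 became 0.48 without replicate 3.

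Hypoxia-inducible genes respond to the HIF factors, which switch cells towards glucose uptake and glycolysis. Of 18 tested, 13 were higher and 0 lower, against 9.57% and 7.08% of all genes, and 10 were peak genes, against 2.15%. The median contrast was 0.17 with and without replicate 3 at 12 h, and 10 of the 18 were higher without it. Slc2a1, the glucose transporter GLUT1, stood at 423, 424 and 379 CPM at 0 h, 535, 494 and 581 CPM at 12 h and 442, 445 and 442 CPM at 24 h, and its contrast was 0.33 ± 0.045, adjusted p = 0.000137. Hilpda, a lipid droplet protein, was at 45.6, 44.7 and 42.8 CPM at 0 h, 57.8, 55.7 and 58 CPM at 12 h and 44.4, 42.8 and 41.9 CPM at 24 h, with the 12 h libraries above and the flanks nearly level, and its contrast was 0.39 ± 0.038, adjusted p = 1.12e-05. Ankrd37, an ankyrin repeat protein with 26.4% of its exonic bases in an overlap on the opposite strand, gave 0.40 ± 0.052, adjusted p = 0.000107. Among members chosen after their values were seen, Bnip3, a mitophagy receptor with 22.3% of its exonic bases in an overlap on the opposite strand, was at 0.27 ± 0.037, Egln1, an oxygen sensor that inhibits HIF, at 0.23 ± 0.041, and Ero1l, an ER oxidase, at 0.43 ± 0.062. Adm, which encodes the vasoactive peptide adrenomedullin, had low counts, at 3.58, 4.21 and 3.4 CPM at 0 h, 7.6, 5.85 and 6.75 CPM at 12 h and 3.64, 4.46 and 4.76 CPM at 24 h, and its contrast was 0.75 ± 0.12. Kdm3a (-0.035 ± 0.037) and Pfkfb3 (-0.031 ± 0.042), also targets of HIF, did not pass. The list score was 0.27, 0.18 and 0.26 at 12 h, and between -0.078 and 0.050 in the other libraries. Glycolysis genes gave 11 higher and 0 lower of 18 tested (2 entries share the symbol Aldoa), with 5 peak genes and a median of 0.13, and 7 were higher without replicate 1 at 12 h. Aldoc, an aldolase, was at 0.28 ± 0.037, Pfkp, a phosphofructokinase, at 0.26 ± 0.038, and Tpi1, triosephosphate isomerase, at 0.20 ± 0.029. The NADPH-producing enzymes G6pdx (0.17 ± 0.031), Pgd (0.17 ± 0.031) and Me1 (0.28 ± 0.04) were peak genes too, and 13.6% of the exonic bases of G6pdx overlap Ikbkg on the opposite strand.

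Interferon-stimulated genes carry out antiviral defense and are switched on by a complex that holds STAT2 and IRF9. Of 39 tested, 15 were lower at 12 h and 0 higher, against 7.08% of all genes lower, and 11 were trough genes, against 1.16% overall. All 39 contrasts were negative, whereas 5691 of the 11373 genes had a negative contrast, and the median was -0.38. Stat2 was at 26.6, 26.1 and 25.4 CPM at 0 h, 20.4, 19.9 and 18.8 CPM at 12 h and 26.7, 26.2 and 26.6 CPM at 24 h. Its levels at 0 h and 24 h were nearly level and all 12 h libraries lay under them, with a contrast of -0.41 ± 0.049, adjusted p = 4.98e-05. Irf9, the DNA-binding partner, was at 11.8, 11.5 and 12.2 CPM at 0 h, 9.66, 8.27 and 7.5 CPM at 12 h and 12.5, 12 and 12.9 CPM at 24 h, again with every 12 h library below the rest, and gave -0.51 ± 0.081, adjusted p = 0.000475. Ddx58, which encodes the viral RNA sensor RIG-I, was at 20.9, 18 and 19.1 CPM at 0 h, 14.5, 13.9 and 13.7 CPM at 12 h and 21.2, 24 and 22.7 CPM at 24 h and gave -0.57 ± 0.064, adjusted p = 2.8e-05. Ifi27 was at 38.7 ± 2.86 CPM at 0 h, 31.7 ± 0.217 CPM at 12 h and 43.6 ± 1.32 CPM at 24 h (SD, n = 3) and gave -0.37 ± 0.048, adjusted p = 0.000107. Ifit1, which binds viral RNA, was low at 4.79, 5.84 and 4.56 CPM at 0 h, 3.74, 3.92 and 4.18 CPM at 12 h and 5.9, 6.4 and 6.44 CPM at 24 h, and its contrast was -0.52 ± 0.11.

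Some members with large negative contrasts had low counts and are named after their values were seen. The most negative contrast of the list, -1.51 ± 0.41, adjusted p = 0.0198, was that of Oas3, of the oligoadenylate synthetase family, at a mean of 0.525 CPM, and it differed from 24 h alone and passed in 6 of the 9 leave-one-out fits. Irf7, the factor that amplifies the interferon response, was at 1.28, 1.45 and 1.92 CPM at 0 h, 0.922, 0.933 and 0.979 CPM at 12 h and 3.21, 2.84 and 2.45 CPM at 24 h, so that its 12 h libraries lay under those at 0 h and its 24 h libraries over them. The contrast of Irf7 was -1.15 ± 0.20, adjusted p = 0.000935. Oasl2, of the same family as Oas3, was at 3.23, 3.21 and 2.67 CPM at 0 h, 1.93, 1.8 and 2.19 CPM at 12 h and 4, 4.7 and 4.1 CPM at 24 h and gave -0.87 ± 0.14, and Apol9b, with a close paralog in Apol9a, was at 2.02, 2.03 and 2.06 CPM at 0 h, 0.866, 1.25 and 1.73 CPM at 12 h and 3.83, 4.58 and 3.39 CPM at 24 h and gave -1.15 ± 0.19. Contrasts were smaller in size in some members with more counts. Ifit2 (-0.25 ± 0.042) was a trough gene, Trim25 was lower at -0.11 ± 0.036, and Irf1 (-0.13 ± 0.048), Bst2 (-0.076 ± 0.044) and Parp9 (-0.036 ± 0.043) did not pass. The score of the list ranged from -0.29 to -0.18 in the 12 h libraries, from -0.082 to 0.14 at 0 h and from 0.31 to 0.39 at 24 h. The 24 h flank was therefore the larger, with median differences of -0.46 against 24 h and -0.23 against 0 h. Without replicate 3 at 12 h, 13 of the 39 were lower and the median was -0.36. Across all alternatives between 11 and 18 were lower. The 4 macrophage markers in the table together reached at most 1.11 CPM in any library, and the cell source of the interferon-stimulated transcripts was not tested.

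**Figure D3:**
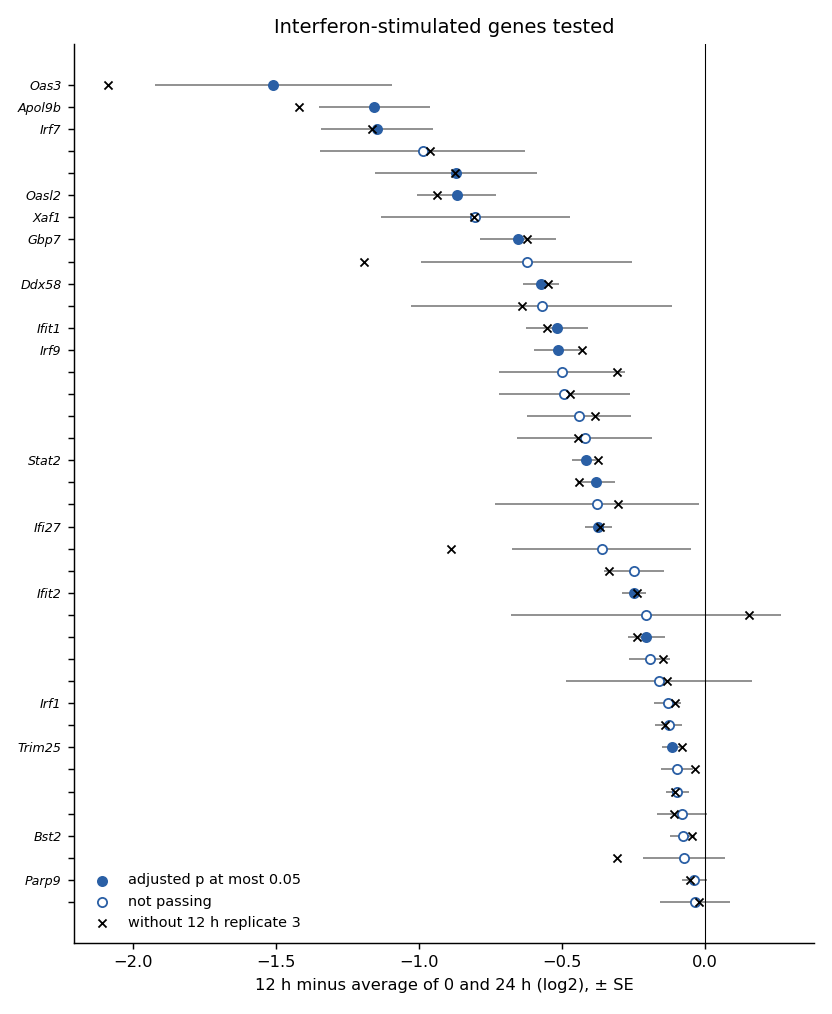
Contrast of 12 h against the average of 0 and 24 h (log2, horizontal axis) for 38 of the 39 tested interferon-stimulated genes, ordered by size, with the genes named in the text labelled; filled circles pass an adjusted p of 0.05, open circles do not, bars are standard errors and crosses are the contrast without 12 h replicate 3. All 38 circles lie below 0, and wide bars belong to genes under 1 CPM such as Oas3 and Xaf1.

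Other trough genes among those named by size were not interferon-stimulated. Dmpk, a kinase known from myotonic dystrophy, was at 59.8, 65.5 and 60.5 CPM at 0 h, 36.8, 36.6 and 29.8 CPM at 12 h and 51.8, 45 and 46.9 CPM at 24 h. The 12 h libraries lay below the 24 h libraries and these below the 0 h libraries, and its contrast was -0.66 ± 0.064, adjusted p = 8.67e-06. Pdzd7, a PDZ scaffold protein, gave -0.64 ± 0.10, and Nav2, a neuron navigator protein, -0.51 ± 0.092. Fgfr3, a fibroblast growth factor receptor, was at 13.8 ± 0.656 CPM at 0 h, 8.17 ± 0.354 CPM at 12 h and 10.2 ± 0.269 CPM at 24 h (SD, n = 3) and gave -0.53 ± 0.072, adjusted p = 0.000142, with 13.9% of its exonic bases in an overlap on the opposite strand. Rab3il1 (-0.61 ± 0.10) and Nrbp2 (-0.57 ± 0.085) were lower as well, but they differed from 0 h alone. Ankrd16 (-0.52 ± 0.081) was a trough gene, while Adhfe1 (-0.53 ± 0.10) differed from 0 h alone. The pseudogene-derived Rpl9-ps6 gave -0.52 ± 0.15, and -0.82 without replicate 3 at 12 h, and its reads cannot be separated with certainty from those of its parent gene.

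Genes repressed by PI3K/AKT signaling through the FOXO factors passed mostly on the lower side. Of 20 tested, 6 were lower and 1 higher, against 7.08% and 9.57% of all genes, with 2 trough genes, against 1.16%, and the median was -0.086. From 4 to 7 were lower in the 9 fits that left out 1 library. Klf15, a metabolic transcription factor, was one of the 2, at 76.8 ± 3.37 CPM at 0 h, 57.8 ± 3.47 CPM at 12 h and 69.5 ± 2.04 CPM at 24 h (SD, n = 3), and its contrast was -0.34 ± 0.044, adjusted p = 0.000107. Pink1, a mitochondrial quality control kinase (-0.31 ± 0.05), and the sestrin Sesn3 (-0.22 ± 0.039) differed from 0 h alone. Of 19 SRF and YAP target genes 2 were higher and 5 lower (10.53% and 26.32%), with a median of -0.0047. The numbers were again 2 and 5 without replicate 3 at 12 h, with a median of -0.038. Without replicate 1 at 12 h 4 were higher and 3 lower. The 5 lower ones included the YAP regulator Amotl2 (-0.25 ± 0.039) and the calponin Cnn2 (-0.23 ± 0.037), both trough genes in all 9 fits that left out 1 library, and in another list, that of ID genes and SMAD feedback genes, the matrix protein gene Ltbp1 was a trough gene at -0.17 ± 0.03. Smtn, a smooth muscle actin-binding protein with 16.3% of its exonic bases in an overlap, was higher at 0.62 ± 0.091 and differed from 0 h alone. Of 13 Notch pathway genes 4 were lower (30.77%) and 0 higher, with a median of -0.11. Among the lower ones was the corepressor Tle2, a trough gene with low counts at -1.15 ± 0.19. From 2 to 5 Notch genes were lower in the fits that left out 1 library, with 2 lower without replicate 2 or 3 at 0 h, 2 at 12 h or 2 or 3 at 24 h.

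All 13 tested mitochondrially encoded genes had a negative contrast, and 7 of them were lower (53.85%, against 7.08% of all genes), with a median of -0.22. They encode subunits of the respiratory chain. mt-Nd1, a complex I subunit, was the single trough gene among them at 1465 ± 40.9 CPM at 0 h, 1149.8 ± 54 CPM at 12 h and 1305 ± 74.5 CPM at 24 h (SD, n = 3), with a contrast of -0.27 ± 0.039, adjusted p = 0.000265. mt-Co1 (-0.22 ± 0.039) and mt-Cytb (-0.22 ± 0.038) differed from 0 h alone. The share of counts from these genes ranged from 1.41 to 1.498% at 0 h, from 1.12 to 1.183% at 12 h and from 1.21 to 1.36% at 24 h, and the part of RNA quality in this difference was not tested. Of 79 nuclear genes of the respiratory chain 9 were higher and 2 lower, with a median of 0.034. These are 11.39% and 2.532%, against 9.57% and 7.08% of all genes. The count of higher ones depended on single libraries, at 2, 2 and 14 without replicates 1, 2 and 3 at 12 h, and 2 to 14 over all 9 such fits. Of 79 cytosolic ribosomal protein genes 0 were higher and 1 lower, with a median of -0.015.

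**Figure D4:**
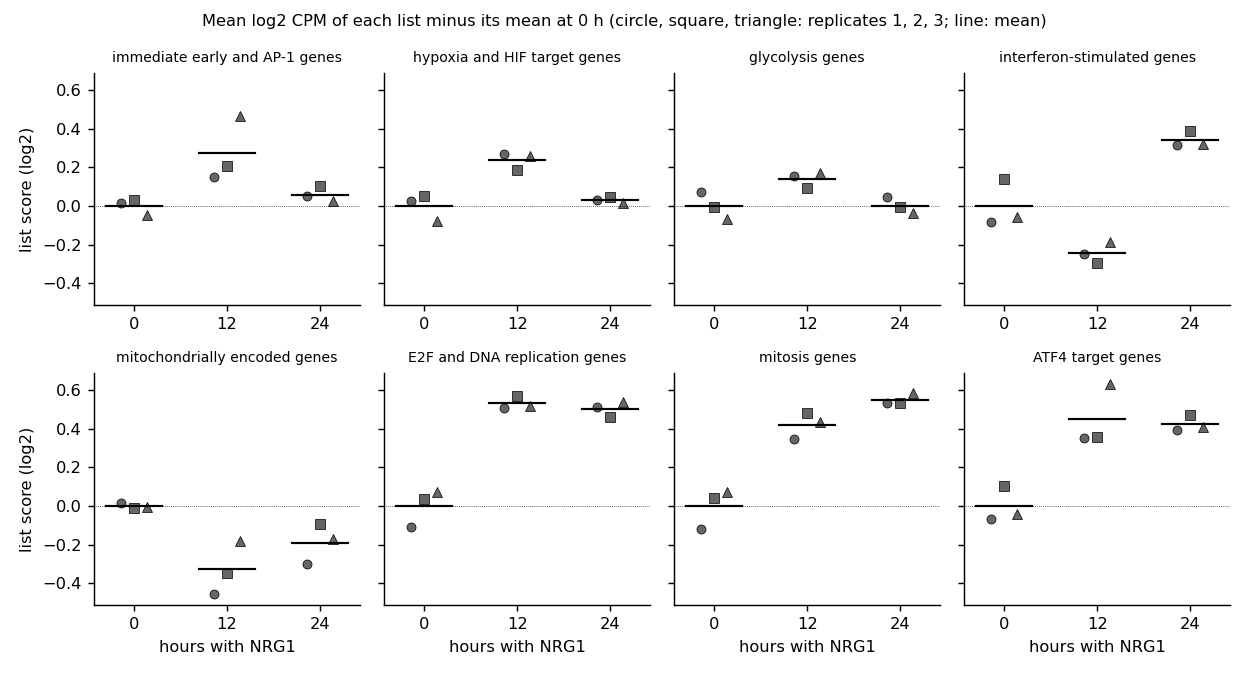
Mean log2 CPM of 8 gene lists less their mean at 0 h (vertical axis) in each of the 9 libraries, by hours with NRG1 (horizontal axis); circles, squares and triangles are replicates 1, 2 and 3, and lines are means. The immediate early, hypoxia and glycolysis lists are highest at 12 h, the interferon list is lowest there, the mitochondrially encoded list lies under its 0 h level in all later libraries, and the replication, mitosis and ATF4 lists are high at both 12 and 24 h.

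Proliferation genes passed in the contrast without a peak. Their counts are read against 9.57% higher and 7.08% lower among all genes tested. Of 47 E2F and DNA replication genes 40 were higher and 0 lower, and all 40 differed from 0 h and not from 24 h, so that 0 were peak genes. The list median was 0.53 against 0 h and 0.018 against 24 h. Without replicate 2 at 12 h 27 were higher, and without replicate 3 at 12 h 38. Pcna, the sliding clamp of DNA polymerase, was at 78.3 ± 4.51 CPM at 0 h, 123 ± 0.309 CPM at 12 h and 116 ± 1.69 CPM at 24 h (SD, n = 3), and the helicase subunits Mcm3 and Mcm6 gave contrasts of 0.39 ± 0.043 and 0.31 ± 0.034. Of 35 mitosis genes 18 were higher and 0 lower, again all 18 against 0 h alone, and the median against 24 h was -0.12. Without replicate 2 at 12 h 8 were higher, and the 9 fits that left out 1 library gave 8 to 20. Aurkb, a kinase of chromosome segregation, was at 31.2, 37.9 and 34.5 CPM at 0 h, 53.3, 57.8 and 53.8 CPM at 12 h and 57.7, 52.7 and 58.6 CPM at 24 h, with 12 h and 24 h values intermingled. Cyclin D, CDK4/6 and RB genes gave 3 higher and 1 lower of 12, with a median of 0.027, and 4 and 0 without replicate 3 at 12 h, with a median of 0.061.

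Genes of amino acid and lipid metabolism also passed mostly against 0 h alone. Among all genes tested 9.57% were higher, 7.08% lower and 2.15% peak genes, and the counts in this paragraph are read against these shares. Of 22 ATF4 target genes, which respond to amino acid shortage, 16 were higher and 0 lower, 15 of them against 0 h alone. Their median was 0.44 against 0 h and 0.026 against 24 h. Without replicate 3 at 12 h 15 were higher, and the median contrast of 0.23 became 0.17. The score of the ATF4 list was 0.35, 0.36 and 0.63 at 12 h and 0.39, 0.47 and 0.41 at 24 h. Asns, asparagine synthetase, was at 202 ± 16.3 CPM at 0 h, 287 ± 23.4 CPM at 12 h and 281 ± 5.56 CPM at 24 h (SD, n = 3). Of 20 cytosolic aminoacyl-tRNA synthetase genes 13 were higher and 0 lower, 12 against 0 h alone, and the median was 0.14. Without replicate 2 at 12 h 9 were higher, and without replicate 3 at 12 h 10. Sterol genes gave 20 higher and 0 lower of 26, 16 against 0 h alone and 3 as peaks, and their median was 0.17. Without replicate 2 at 12 h 15 were higher, and without replicate 3 at 12 h 17. The peaks were Acat2 (0.29 ± 0.038), Lss (0.29 ± 0.043), which encodes lanosterol synthase, and Pmvk (0.26 ± 0.036), a kinase of the mevalonate pathway. Fatty acid synthesis genes gave 7 higher and 0 lower of 12 (median 0.14), and heat shock genes 5 higher and 2 lower of 20 (median 0.035; 3 higher and 1 lower without replicate 1 or 2 at 12 h), with 3 peak genes that included Dnajb1 (0.27 ± 0.037) and Hsp90aa1 (0.19 ± 0.029). Of the metallothioneins and zinc transporters 3 of 14 were higher and 0 lower (median 0.078), and Mt1, which binds zinc, was a peak gene at 585, 502 and 486 CPM at 0 h, 730.5, 647 and 725 CPM at 12 h and 604, 547 and 528 CPM at 24 h. Nucleolar ribosome biogenesis genes gave 5 higher and 0 lower of 26 (median 0.071), and from 3 to 12 higher in the fits that left out 1 library, with 12 without replicate 3 at 12 h and 3 without replicate 1 or 2 at 12 h or replicate 2 at 24 h.

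**Figure D5:**
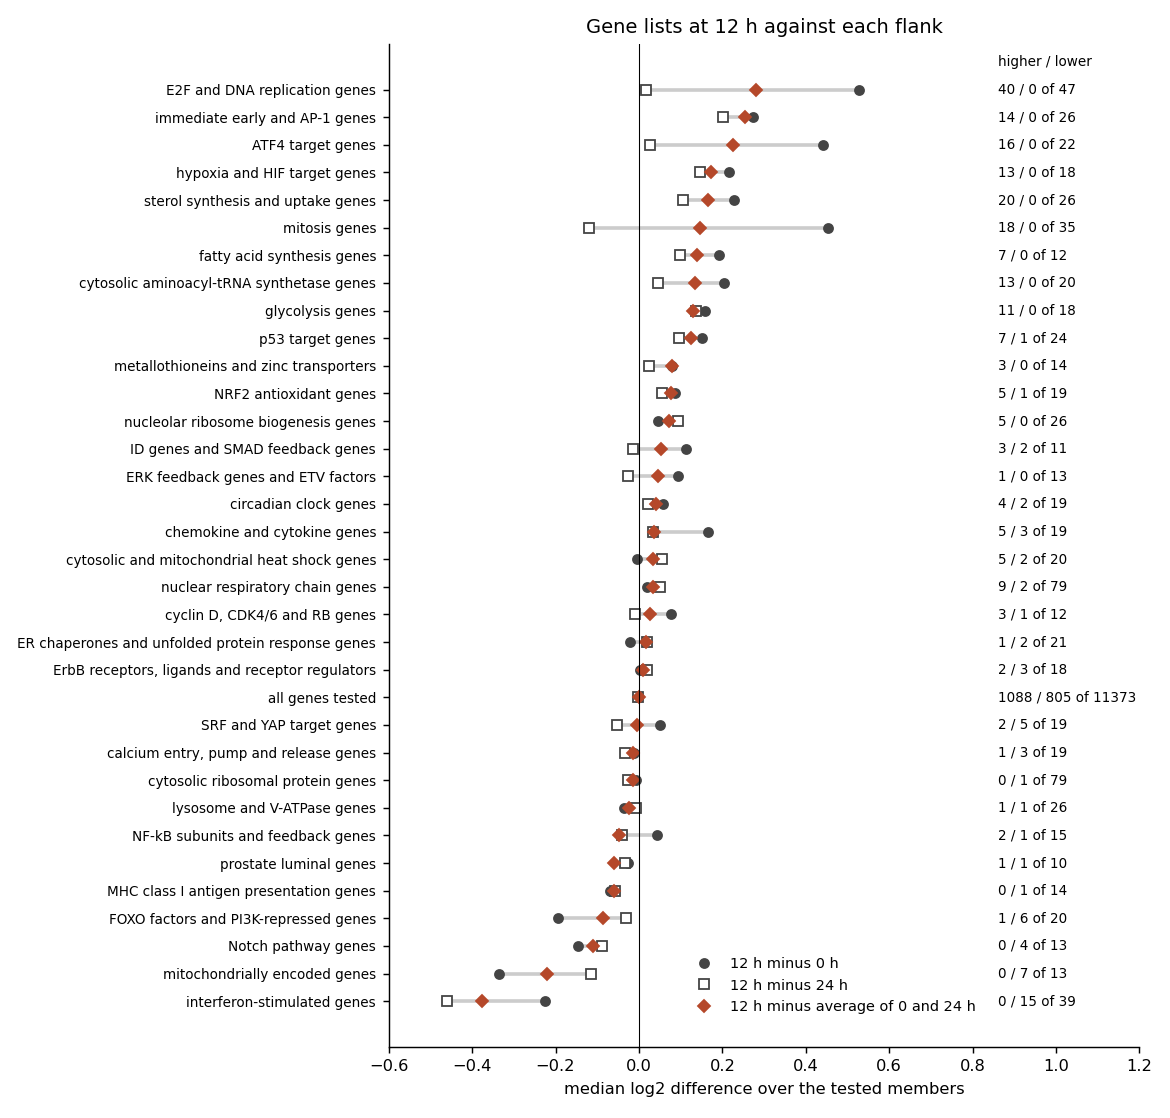
Median log2 difference over the tested members of each gene list, for 12 h minus 0 h (filled circles), 12 h minus 24 h (open squares) and 12 h minus the average of both (red diamonds), with the number of members higher and lower in the contrast at the right. The 2 flanks lie close together on the right for the immediate early, hypoxia and glycolysis lists and both lie on the left for the interferon list, while the E2F, mitosis and ATF4 lists have a large difference from 0 h and one near or below 0 from 24 h.

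Of 18 ErbB receptors, ligands and regulators 2 were higher and 3 lower (11.11% and 16.67%, against 9.57% and 7.08% of all genes), with a median of 0.011, and without replicate 3 at 12 h these were 1 and 4. Erbb3, the receptor for NRG1, did not pass, with 87.3, 82.7 and 78.5 CPM at 0 h, 78.3, 78.9 and 92.9 CPM at 12 h and 94.2, 90.8 and 89.1 CPM at 24 h and a contrast of -0.062 ± 0.051, adjusted p = 0.45. Erbb2 (-0.22 ± 0.04, adjusted p = 0.00135) and Egfr (-0.30 ± 0.05, adjusted p = 0.000675) were lower, both against 0 h alone, and the sheddase gene Adam17 was a peak gene at 0.13 ± 0.031. Among 13 ERK feedback genes and ETV factors (median 0.046), Dusp6, an ERK phosphatase, alone passed, at 0.30 ± 0.033, and it differed from 0 h alone. Myc was at 71 ± 3.5 CPM at 0 h, 63.6 ± 8.54 CPM at 12 h and 75 ± 0.962 CPM at 24 h (SD, n = 3). Its contrast was -0.20 ± 0.061, adjusted p = 0.0352, which passed in 2 of the 9 leave-one-out fits, and neither flank passed. Reads were aligned to the mouse genome, so any reads of the MYC transgene among the Myc counts cannot be told apart. The NF-kB list gave 2 higher and 1 lower of 15 (13.33% and 6.667%, median -0.047), or 2 and 3 without replicate 3 at 12 h (median -0.0014). Its cofactor Bcl3 was a peak gene (0.27 ± 0.051) and its inhibitor Tnip1 a trough gene (-0.21 ± 0.046). Chemokine and cytokine genes gave 5 higher and 3 lower of 19 (26.32% and 15.79%, median 0.037), or 4 and 3 without replicate 3 at 12 h (median -0.023). Cxcl2 was higher at 1.23 ± 0.24, against 0 h alone. Ccl5, a chemokine that attracts T cells, was at 1.92, 2.16 and 1.54 CPM at 0 h, 1.45, 1.87 and 1.83 CPM at 12 h and 4.06, 5.92 and 4.97 CPM at 24 h, so that only the 24 h libraries stood apart, and its contrast was -0.84 ± 0.17.

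Time points 12 h apart also allowed a look at the circadian clock, whose genes can cycle in cultured cells after a change of medium. Of 19 tested clock genes 4 were higher and 2 lower (21.05% and 10.53%, against 9.57% and 7.08% of all genes). Leaving out 12 h replicate 3 made these 3 and 0, while without replicate 2 at 12 h they were 5 and 0. The median was 0.041. Bhlhe40, a repressor of clock genes that also responds to hypoxia, was at 265, 267 and 240.0 CPM at 0 h, 329, 315 and 319 CPM at 12 h and 249.9, 261 and 254 CPM at 24 h. Its 12 h libraries lay above the rest, and the contrast was 0.33 ± 0.036, adjusted p = 2.26e-05. Ciart, another clock repressor, was the second peak gene at 0.28 ± 0.049. Arntl (0.21 ± 0.052), which encodes BMAL1, and Cry2 (0.20 ± 0.061) were higher against 0 h alone, and Nr1d2 (-0.14 ± 0.041) was one of the 2 lower genes. The clock genes Dbp (-0.13 ± 0.093), Nr1d1 (-0.034 ± 0.061), Per1 (0.089 ± 0.035) and Per2 (-0.088 ± 0.055) did not pass, nor did Clock (-0.052 ± 0.039). Of the exonic bases of Dbp, 18.0% overlap Sphk2 on the opposite strand. With 3 time points a rhythm cannot be told apart from a single rise or fall.

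The remaining lists are given by the number higher and lower, read against 9.57% and 7.08% of all genes. MHC class I genes gave 0 higher and 1 lower of 14 (median -0.061), ER chaperones and unfolded protein response genes 1 and 2 of 21 (0.016), NRF2 antioxidant genes 5 and 1 of 19 (0.076), and ID genes and SMAD feedback genes 3 and 2 of 11 (0.053). Prostate luminal genes gave 1 and 1 of 10 (-0.059), and the higher one, the homeobox gene Hoxb13, was a peak gene at 0.23 ± 0.037. Lysosome and V-ATPase genes gave 1 and 1 of 26 (-0.025), and calcium entry, pump and release genes 1 and 3 of 19 (-0.013). Without replicate 3 at 12 h the numbers were 6 and 0 for the NRF2 list, 2 and 1 for the ID and SMAD list, 1 and 1 for the ER list, 1 and 2 for the luminal list, 1 and 0 for the lysosome list and 2 and 4 for the calcium list. Other single libraries also moved these small counts, with 1 to 3 of the ID and SMAD genes higher and 1 to 4 of the calcium genes lower over the 9 fits. In the NRF2 list, Hmox1, which encodes heme oxygenase, was at 10.7, 11.5 and 11.3 CPM at 0 h, 17.9, 15.7 and 23.5 CPM at 12 h and 15.5, 14.7 and 14.9 CPM at 24 h. Every 12 h library was above the rest, and the contrast of Hmox1, 0.55 ± 0.093, became 0.38 without replicate 3. Hmox1 was not among the 2 peak genes of the list, G6pdx and Pgd, and its 24 h libraries lay above those at 0 h. Across the 33 lists, 47 of the 245 peak genes (19.2%) and 21 of the 132 trough genes (15.9%) were members of a list, against 6.86% of all genes tested.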

How the data were processed

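Total RNA of MyC-CaP cells was sequenced as paired-end mRNA libraries of 150 bp reads at 0, 12 and 24 h, with 3 libraries per time, and groups follow the time in the labels. The authors trimmed reads with Cutadapt, aligned them to GRCm38.p6 (STAR, GENCODE annotation) and obtained gene counts from featureCounts. The deposited values are raw counts per gene, without normalization, in 1 table of 15552 protein-coding genes. The strand setting and the treatment of reads that match several places are not given in the sources used here, so genes given with values that have more than 10% of exonic bases in an overlap (GENCODE vM21) are marked.

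Genes were kept by filterByExpr (11373 of them), scaled by TMM and fitted with glmQLFit in edgeR 4.0.16 under R 4.3.3, 9 libraries in 1 model of time. The contrast and both flanks were tested with glmQLFTest and adjusted by Benjamini-Hochberg over all genes tested. A gene passes at an adjusted p of at most 0.05 and is called when it also changes by at least 1.5-fold. "Higher" and "lower" mean passing in the contrast. Standard errors were derived from each fold change and F statistic, and CPM are TMM-scaled. Total counts per library ranged from 28467089 to 39239760, and the median standard error of the contrast was 0.053 (log2). Alternatives used other scalings, filters, DESeq2 1.42.0, limma 3.58.1, glmTreat, a replicate block and leaving out each library. The procedures were tested on simulated data.

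The contrast, the 33 gene lists and the rule for naming genes were chosen with earlier results of these data known, so counts over lists are descriptions. Members higher or lower in each list are read against 9.57% and 7.08% of all genes tested. Named by rule were the 12 largest contrasts per direction at 5 CPM or more among called genes, filled with genes passing the adjusted p alone, the 8 peak and 8 trough genes with the largest smaller flank, up to 3 passing members per list by lowest adjusted p, all tested clock genes, and Erbb2, Erbb3, Egfr and Myc. Not all 132 genes so chosen are described, some are not reported here, and others are marked as chosen after their values were seen or illustrate a list. Biological replicates are so named in the labels, while the methods of the study describe cells of the line plated in triplicate. The SD, SE and p-values may therefore reflect spread between wells and not between independent experiments.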

Additional observations from a re-analysis of the deposited data

How the results depend on the processing

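The 25 higher and 39 lower calls numbered 19 to 35 and 25 to 39 in the 9 fits that left out 1 library, and the 1088 and 805 genes passing the adjusted p alone numbered 731 to 1073 and 508 to 788. Peak genes ranged from 106 to 308 and trough genes from 44 to 238, and in all 9 of these fits 80 and 26 kept their shape. The lower counts of 25 and 508 arose without replicate 1 at 12 h. glmTreat called 0 genes higher and 0 lower. With a mean of at least 1 CPM as filter, 24 genes were called lower, and with no filter on low counts 262 were trough genes. Requiring 1.5-fold in both flanks left 5 peak and 9 trough genes. The other settings (other scalings and filters, DESeq2 and limma) stayed within 1.5 times the main counts. Across libraries, equal replicate numbers gave little sign of pairing, as correlations of their deviations ranged from -0.074 to 0.13, and 1 of 9 was over 0.1. Such low values cannot show that the samples were unpaired. A replicate block gave 26 and 40 calls, 1118 and 881 genes passing, 247 peak and 145 trough genes. For the 132 named genes, 2119 of 2244 values kept direction and side of the threshold, 105 lost and 11 gained the call, and 9 changed sign, all of them in clock genes that pass in no setting. Among genes described as higher or lower, Trim25 passed in 1 of the 9 leave-one-out fits, Myc in 2, Cry2 in 4, Nr1d2 and Rpl9-ps6 in 5, Oas3 in 6 and Krt19 and Krt23 in 8. With total counts the Csnk1e log2 difference was -0.0105. In the fits that left out 1 library, Csnk1e ranged from -0.0262 to 0.0368, Csnk1d from -0.0144 to 0.0021, Nr1d1 from -0.0717 to 0.0089 and Tef from -0.0068 to 0.0748. The cause of the changes was not tested.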

Other observations

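Some peak genes were in no list (the genes and the keratin family in this paragraph were chosen after their values were seen). Of 20 tested genes with a keratin symbol 7 were higher, 0 lower and 4 peak genes, with a median contrast of 0.29. Among all genes tested 9.57% were higher, 7.08% lower and 2.15% peak genes. The abundant Krt4 (-0.0098 ± 0.044), Krt7 (-0.076 ± 0.052) and Krt80 (-0.029 ± 0.042) did not pass, nor did Krt8 (0.13 ± 0.074). Krt15 was at 219, 169 and 172 CPM at 0 h, 274, 238 and 245 CPM at 12 h and 179, 150.5 and 152 CPM at 24 h, and its contrast was 0.55 ± 0.072, adjusted p = 0.000121. Krt6a, with 24.8% of its exonic bases in an overlap on the opposite strand, gave 0.53 ± 0.069 and Krt78 0.41 ± 0.081, both peak genes. Krt19 (0.39 ± 0.10), Krt23 (0.79 ± 0.19) and Krt76 (0.82 ± 0.16) were higher against 0 h alone. Of the enzymes of glycogen synthesis, the branching enzyme gene Gbe1 was at 139.6, 142 and 135 CPM at 0 h, 209, 193 and 226 CPM at 12 h and 147, 149 and 152 CPM at 24 h with a contrast of 0.54 ± 0.04, adjusted p = 1.05e-06, and Gys1, which encodes glycogen synthase, was at 0.33 ± 0.044. Other peak genes were Anxa2, a calcium-dependent membrane protein (0.37 ± 0.038), and the mitochondrial protease gene Lonp1 (0.32 ± 0.032).

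Among trough genes, Cdo1, a cysteine dioxygenase, was at 421, 376 and 398 CPM at 0 h, 324, 324 and 288 CPM at 12 h and 416, 382 and 406 CPM at 24 h and gave -0.36 ± 0.045, adjusted p = 7.88e-05. Gpnmb, a lysosomal glycoprotein, was at -0.38 ± 0.033, and Tead3, a partner of YAP, at -0.24 ± 0.054. Prkcb had the largest smaller flank of all trough genes and had low counts, at 0.674, 0.947 and 0.581 CPM at 0 h, 0.0838, 0.257 and 0.196 CPM at 12 h and 0.59, 0.538 and 0.611 CPM at 24 h.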
